A study of Mus musculus with 8 samples.

Results

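The replication-type histone genes of sorted mouse bone marrow progenitors are described here, that is, every row of the deposited count table whose symbol starts with Hist1h, Hist2h, Hist3h or Hist4h and that held at least 50 UMIs (unique molecular identifiers, each marking 1 captured RNA molecule) over all cells. The members were thus chosen by gene name and by their UMI total over all cells. The rule kept 62 of 69 such rows, out of 27998 genes. The kept genes were 5 linker genes and 57 core genes, made up of 16 H2A, 16 H2B, 12 H3 and 13 H4 genes. Hist1h1c was followed apart from the other 4 linker genes. Just inside the rule stood Hist1h2ad with 73 UMIs, and just outside it Hist1h2ah with 43 UMIs. The 7 rows left out were Hist1h2ah, Hist2h2aa2, Hist1h2aa, Hist1h1t, Hist1h2ba, Hist1h2bq and Hist1h2br.

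The cells were KL cells, bone marrow cells sorted as negative for the lineage markers CD3, CD4, CD8, CD45R, CD11b, TER119 and GR1 and positive for CD117 (c-Kit), from female B6 mice aged 3 to 4 months. The SPF mice stayed in a specific-pathogen-free facility, and the CVT mice lived for 1 month in a conventional facility with mice born there. The numbers in the sample titles were read as 10 SPF and 10 CVT mice, whereas the paper's figure legend gives 8 of each. By the titles, cells of 2 or 3 mice were pooled for each library, which gave 4 pools a group: SPF pools 1, 2, 7 and 8 and CVT pools 3, 4, 5 and 6. A pool, not a cell or a mouse, was the replicate. The pooled mice cannot be told apart, so p-values rest on the spread between pools.

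Histone proteins pack DNA in the nucleus. A pair each of the core histones H2A, H2B, H3 and H4 forms the nucleosome bead, and a linker histone, H1, sits where the DNA enters and leaves it. Most copies of these genes lie in clusters and are switched on when a cell replicates its DNA, and their messages end in a short hairpin that the stem-loop binding protein Slbp holds, in place of a poly(A) tail. The libraries were primed on poly(A) tails, so the UMIs count the tailed or internally primed part of each message. The amount of a histone message and the part of it that carries a tail cannot be told apart.

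The table held 29891 cells with 502 to 5497 genes each and 335844251 UMIs, with 19041749 to 49911524 UMIs per SPF pool and 41901551 to 59812346 per CVT pool. A total of 522 cell barcodes occurred in more than 1 pool. Kit, which encodes the sorted receptor, lay between 56.8 and 87.2 CPM in the pools (UMIs of the gene per 1000000 UMIs of the cells summed), and Cd3e was at most 0.454. Messages of the lineage genes Itgam and Ly6g were present, at up to 29.1 and 69.5 CPM, so the marrow fraction held granulocyte messages.

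One cell of CVT pool 6 stood apart in these genes and is treated separately below. It had the most UMIs of any cell, 49732, and 707 of them were histone UMIs, against 78 in the next cell of that pool. Hist1h2bc gave 286 and Hist1h1c 284 of these, the latter 15.6% of all Hist1h1c UMIs of the pool, while the second highest cell of any pool had 15 Hist1h1c UMIs. Hist1h4i gave 72 and Hist3h2a 42, whereas Hist1h2ap, Hist1h1a, Hist1h1b, Hist1h1d and Hist1h1e gave 0. The cell was megakaryocyte-like, with 1423 UMIs of the platelet chemokine Pf4. Values of Hist1h1c, Hist1h2bc, Hist1h4i and Hist3h2a over all KL cells or low cells are given with and without it where it moved them.

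The 62 genes held 241256 UMIs, 0.0718% of the total, and the linker genes held 28.5% of those. The 7 genes with the most UMIs, Hist1h2ap (38971), Hist1h2bc (31195), Hist1h1b (29799), Hist1h4i (18996), Hist1h2ae (18712), Hist1h1e (17828) and Hist1h1c (13248), together made up 69.9%. Many core genes code for nearly the same protein and share long stretches of sequence, so the division of UMIs among them is uncertain. In the GENCODE annotation of build GRCm38, 61 of the 62 symbols were found, 49 on chromosome 13, 9 on chromosome 3, 2 on chromosome 11 and 1 on chromosome 6. The 5 linker genes lay on chromosome 13, with Hist1h1c at chr13:23738808-23740367 on the plus strand and Hist1h1b at chr13:21779883-21780625 on the minus strand.

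The hairpin that ends replication-type histone messages was searched for in the annotated transcripts of each gene (GENCODE, taking the longest with a match, or else the longest), as 6 bases that start with GG, a loop of 4 bases that starts with TT and the exact reverse complement of the first 6. It was found in 42 of 61 histone genes (68.9%) and in any coding transcript of 86 of 21810 other protein-coding genes (0.394%). The most frequent form occurred in 25 members. The forms below are shown with up to 5 flanking bases because the genes differ in how far the annotated transcript runs past the hairpin, and the capitals mark stem, loop and stem.
Hist1h2ap: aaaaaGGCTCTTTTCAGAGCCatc
Hist1h1c: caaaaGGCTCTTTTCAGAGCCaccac
Hist1h1e: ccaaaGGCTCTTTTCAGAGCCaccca
Hist3h2a: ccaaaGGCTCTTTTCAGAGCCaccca
Hist3h2ba: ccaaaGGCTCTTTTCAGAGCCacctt
Hist4h4: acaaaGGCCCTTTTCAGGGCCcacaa
Hist1h4i: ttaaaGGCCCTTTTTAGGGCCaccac
Hist1h2ap ended 3 bases after its hairpin, whereas the annotated transcript went on for 840 bases in Hist1h1c, 1153 in Hist1h1e, 1643 in Hist3h2a, 2445 in Hist4h4, 169 in Hist3h2ba and 330 in Hist1h4i. Of the 42 members with a hairpin, 21 ended less than 100 bases after it and 21 ran on for at least 100 bases. The poly(A) signal letters AATAAA stood in the last 40 bases of 10 members, among them Hist1h1c, Hist3h2a, Hist3h2ba and Hist4h4. No hairpin of this form was found in the annotated Hist1h1a, Hist1h1b and Hist1h2bc transcripts. Other members without one had short annotated transcripts, such as Hist1h2ak with 393 bases, Hist1h2bn with 381 and Hist1h4k with 312. A hairpin past the annotated end could not be found, so its absence here may lie in the annotation.

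The linker promoters carried the letters of a shared element. The H1 box, AAACACA, stood on either strand of the RefSeq promoters (GRCm38.p6, 250 bases before to 50 after the start) of 4 of 5 linker genes and 2 of 49 matched core genes (4.08%), against 7.14% of 27025 promoters. CCAAT was found in 5 of 5 linker and 40 of 49 core promoters (81.6%), against 37.9% of all, and TATAAA in 4 of 5 linker and 28 of 49 core promoters (57.1%), against 14.2% of all. The 150 bases before the start of 3 linker genes are shown, 5′ to 3′ on the strand of the gene, because Hist1h1c lacked TATAAA and Hist1h1a lacked the H1 box, while Hist1h1b held all 3 motifs. The capitals mark these motifs on either strand (ATTGG is CCAAT read on the other strand), and none of them overlapped another in these 3 windows.
Hist1h1c: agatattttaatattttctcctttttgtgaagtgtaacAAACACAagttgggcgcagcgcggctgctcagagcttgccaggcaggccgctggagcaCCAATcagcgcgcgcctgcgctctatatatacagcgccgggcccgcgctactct
Hist1h1a: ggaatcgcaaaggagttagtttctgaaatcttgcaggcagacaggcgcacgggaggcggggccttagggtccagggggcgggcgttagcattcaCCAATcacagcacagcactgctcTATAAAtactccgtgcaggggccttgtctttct
Hist1h1b: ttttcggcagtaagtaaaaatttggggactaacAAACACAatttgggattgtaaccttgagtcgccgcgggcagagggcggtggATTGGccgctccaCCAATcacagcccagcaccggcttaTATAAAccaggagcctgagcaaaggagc
Hist1h1c is at chr13:23738657-23738806 on the plus strand, Hist1h1a at chr13:23763518-23763667 on the plus strand and Hist1h1b at chr13:21780626-21780775 on the minus strand. The motif letters are a description of these windows.

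Histone UMIs followed the genes of the cell cycle. In each pool, cells were ranked by the share of their UMIs in a list of 23 mitosis genes (such as Top2a and Ccnb1) and in a list of 20 replication genes (such as Mcm5 and Pcna), neither of which holds a histone gene. The 20% with the highest mitosis share were called mitosis-high, the next 20% of the rest by replication share replication-high, and cells in the lowest 40% for both lists low in both. These ranges held 5981, 4786 and 7116 cells and are cuts from a score, not cell types. UMIs were summed per pool and range, and the 24 sums were fitted with edgeR's quasi-likelihood test with the pool as a block, over 11288 genes with Benjamini-Hochberg adjustment.

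Of the 51 members that passed the filter on low counts, 46 were higher and 2 lower in mitosis-high than in low cells, where 36.4% of all genes tested were higher and 42.9% lower. The members' median log2 difference was 2.24, and that of all genes −0.06. In replication-high cells 38 members were higher and 5 lower (36.4% and 41.9% of all genes), with a median of 1.07. A member found mainly in mitosis-high cells could pass the filter through those cells alone, and 11 members did not pass it.

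Hist1h1b (RefSeq symbol H1f5), a linker histone of dividing cells, showed the widest span of the linker genes. Its level ran from 5.81 to 14.6 CPM (median 8.22) in the low cells of the 8 pools, from 21.4 to 138.2 (median 82.1) in replication-high cells and from 169.0 to 227.7 (median 203.7) in mitosis-high cells. No pool of one range overlapped with another range. The log2 difference from low cells was 3.44 (SE 0.221, adjusted p = 1.619e-12, edgeR) in replication-high and 4.62 (SE 0.209, adjusted p = 2.52e-15) in mitosis-high cells. The lowest replication-high value belonged to SPF pool 7.

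Hist1h2ap, the H2A gene with the most UMIs, behaved alike. It lay between 9.80 and 14.5 CPM (median 11.4) in low cells, 27.5 and 142.6 (median 99.9) in replication-high cells and 220.5 and 334.4 (median 291.7) in mitosis-high cells. The ranges did not overlap in any pool, and the log2 differences were 3.08 (SE 0.212) and 4.68 (SE 0.202), both past the threshold. The other linker genes rose by less. The log2 difference in mitosis-high cells was 2.76 for Hist1h1a (SE 0.148), 2.41 for Hist1h1e (SE 0.171) and 1.84 for Hist1h1d (SE 0.157), each higher in 8 of 8 pools. In replication-high cells the same genes were 2.02, 1.02 and 0.74 higher, in 8, 7 and 6 of 8 pools.

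Hist1h1c departed from the other linker genes. It lay between 24.9 and 92.8 CPM (median 46.5) in low cells, 13.9 and 33.5 (median 22.7) in replication-high cells and 33.6 and 55.4 (median 39.0) in mitosis-high cells. The highest low-cell value was that of CVT pool 6, and without its 1 extreme cell the highest was 62.6 and the median 42.8. Replication-high cells were lower in 8 of 8 pools, with a log2 difference of −1.0 (SE 0.139, adjusted p = 8.096e-07, edgeR), or −0.82 without that cell, still called. Mitosis-high cells did not pass the test, at −0.17 (SE 0.128, adjusted p = 0.238), and the value was 0.002 without that cell.

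Hist3h2a, Hist3h2ba, Hist4h4 and Hist1h2bc were the other members that fell in replication-high cells. Hist3h2a and Hist3h2ba, an H2A and an H2B gene on chromosome 11, and Hist4h4, an H4 gene on chromosome 6, were chosen after their values were seen. Hist3h2a ran from 29.5 to 40.5 CPM (median 36.1) in low cells, from 6.32 to 10.7 (median 9.56) in replication-high cells and from 16.7 to 29.7 (median 24.3) in mitosis-high cells. No replication-high pool reached a low pool, and the log2 differences were −1.89 (SE 0.0983, adjusted p = 3.592e-14) and −0.50 (SE 0.0821, adjusted p = 7.659e-06), or −1.85 and −0.46 without the extreme cell, both still called. Hist3h2ba differed by −2.22 (SE 0.186) and −0.24 (SE 0.138, adjusted p = 0.1079). Hist4h4 was 0.67 lower on the log2 scale in replication-high and 0.39 higher in mitosis-high cells, both past the threshold. Hist1h2bc, the H2B gene with the most UMIs, differed by −0.88 and −0.73, both called, or −0.79 and −0.64 without that cell.

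Among the remaining core genes named by rule, Hist1h2ae was 3.68, Hist1h2bj 3.28, Hist1h4d 2.40 and Hist1h4i 1.86 higher in mitosis-high cells on the log2 scale, and Hist1h3a 0.82. Hist1h3e did not pass, at −0.20 (adjusted p = 0.2041) in replication-high and 0.28 (adjusted p = 0.05277) in mitosis-high cells. By family, 13 of 14 tested H2A genes, 13 of 15 H2B, 8 of 9 H3 and 8 of 8 H4 genes were higher in mitosis-high cells. The largest difference was 5.36 for Hist1h2bk.

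**Figure D1:**
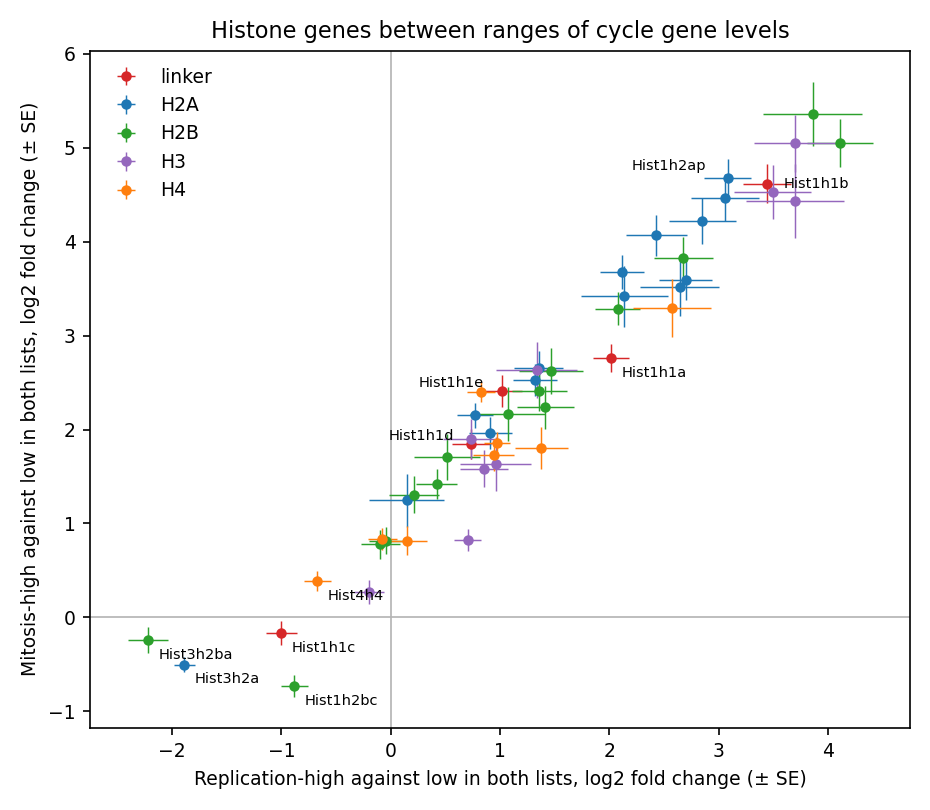
Log2 fold change of each tested histone gene in replication-high cells (x axis) and mitosis-high cells (y axis) against cells low in both lists, with bars of 1 SE and colours for the histone family. Most genes lie up and to the right, Hist1h1b at 3.44 and 4.62, while Hist1h1c, Hist1h2bc, Hist3h2a and Hist3h2ba lie at the lower left.

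The ranges differed in depth and in cell types beside cycle genes. The median UMIs per cell were 5527 in low, 12972.5 in replication-high and 14437 in mitosis-high cells. CMP-like cells made up 23.2% of low and 0.134% of mitosis-high cells, and MEP-like cells 12.7% and 28.4%. Mitosis-high cells were rich in replication messages too, with 2418 CPM of the replication list against 571.3 in low and 3771 in replication-high cells. Replication-high cells also carried mitosis messages, 854.6 CPM of the mitosis list against 74.3 in low and 3441 in mitosis-high cells. With wider high ranges and a narrower low range, that level was 372.0, and 13 members were higher and 14 lower in replication-high cells, with a median of 0.118. Hist1h1e was then −0.51 and Hist1h1d −0.41, whereas the mitosis-high comparison still called 47 members. The shares of all genes called with these other cuts are not given here, so the counts have no background beside them.

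The transcript ends differed between members that moved differently. Members whose annotated transcript ends within 100 bases of the hairpin had a median log2 difference of 3.41 in mitosis-high cells, and all 16 tested were higher. Members that run on for at least 100 bases had a median of 1.64, with 15 of 19 higher and 1 lower, and those with no hairpin found 2.65, with 14 of 15 higher and 1 lower. The last group includes members with short annotated transcripts, where a hairpin past the annotated end would be missed. The 8 tested members with AATAAA near the end had a median of −0.38 in replication-high cells, with 3 higher and 4 lower, against 1.33 in the 42 without it, with 34 higher and 1 lower. All 4 of the lower ones, Hist1h1c, Hist3h2a, Hist3h2ba and Hist4h4, also carry a hairpin, as shown above. The groups were formed after values were seen, and no test was made between them.

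**Figure D2:**
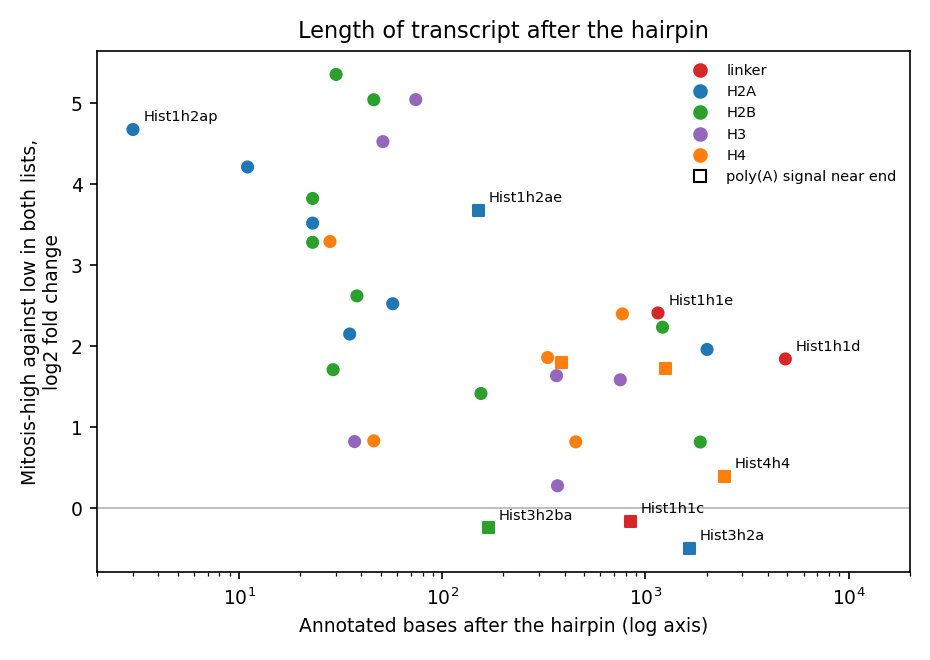
Log2 fold change in mitosis-high against low cells (y axis) by the number of annotated bases after the hairpin (x axis, log scale) for the members with a hairpin that were tested, with squares for transcripts with AATAAA near the end. Hist1h2ap, with 3 bases, is at 4.68, and Hist3h2a, with 1643 bases, at −0.50.

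Within cell classes the ranges could be compared in pools with at least 20 cells of both ranges. Cells were clustered without the histone genes, and clusters were called X-like from marker genes. These values are descriptions with no test. The summed level of the 4 other linker genes was higher in mitosis-high than in low cells in 8 of 8 pools of LMPP-like (mean 399.2 against 32.6 CPM), MEP-like (405.4 against 44.7), monocyte-like (306.4 against 17.0) and granulocyte-like cells (205.5 against 21.4). Hist1h1c did not follow one direction there. It was higher in mitosis-high cells in 8 of 8 pools of LMPP-like (45.8 against 27.3) and granulocyte-like cells (65.3 against 32.0), and lower in 7 of 8 pools of MEP-like cells (34.6 against 42.1). In replication-high cells Hist1h1c was lower in 5 of 5 pools of MPP-like and CMP-like cells (19.4 against 72.0 in the latter) and in 7 of 8 pools of monocyte-like cells. This fall was not particular to Hist1h1c. The other linker genes were lower in 5 of 5 pools of MPP-like cells (32.9 against 49.0) and 3 of 5 of CMP-like cells. They were higher in 8 of 8 pools of MEP-like and monocyte-like cells and 6 of 8 of LMPP-like cells. Higher values also held in 5 of 6 pools of megakaryocyte-like and 3 of 3 of GMP-like cells. The core genes were lower in replication-high cells in 5 of 5 pools of MPP-like (135.5 against 265.2) and CMP-like cells (193.4 against 320.4). With the extreme cell counted, they were also lower in 5 of 6 pools of megakaryocyte-like cells. They were higher in 8 of 8 pools of MEP-like and monocyte-like cells, 6 of 8 of LMPP-like and 2 of 3 of GMP-like cells. Hist3h2a was lower in replication-high cells in 8 of 8 pools of LMPP-like, MEP-like and monocyte-like cells.

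By their means, the other linker and the core genes were lowest in MPP-like and LTHSC-like cells, and Hist1h1c in monocyte-like, GMP-like and MPP-like cells. The 4 other linker genes summed to 37.7 ± 14.7 CPM (SD, n = 8 pools) in LTHSC-like (long-term stem) cells and 36.8 ± 10.1 in MPP-like (multipotent) cells, which did not differ beyond their spread. CMP-like (common myeloid, 60.2 ± 6.46) and GMP-like (granulocyte-monocyte, 65.8 ± 7.61) cells came next and overlapped each other. Then followed basophil or mast-like (82.8 ± 22.4), granulocyte-like (114.7 ± 24.2), monocyte-like (155.8 ± 17.6), LMPP-like (lymphoid-primed, 178.9 ± 28.4), megakaryocyte-like (223.9 ± 20.1) and MEP-like cells (megakaryocyte-erythroid, 270.8 ± 52.6), each overlapping with its neighbour. The few B-like cells (137 cells in 4 pools) stood highest at 655.7 ± 39.3, and erythroid-like cells (95 cells in 3 pools) reached 395.3 ± 53.8. The core genes ran from 231.1 ± 38.5 in MPP-like and 247.8 ± 70.1 in LTHSC-like to 613.1 ± 67.4 in MEP-like, 708.9 ± 67.1 in megakaryocyte-like (692.2 ± 51.9 without the extreme cell), 1189 ± 150 in erythroid-like and 1454 ± 263 in B-like cells.

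Hist1h1c was highest in basophil or mast-like cells (70.5 ± 18.5) and megakaryocyte-like cells (71.2 ± 34.7, and 59.1 with a range of 43.5 to 83.5 without the extreme cell), then B-like (62.2 ± 23.2, 4 pools), CMP-like (62.1 ± 13.9), granulocyte-like (53.4 ± 20.4), erythroid-like (47.7 ± 8.24, 3 pools) and LTHSC-like cells (44.8 ± 13.5). Its pools ran from 31.6 to 66.8 (median 43.1) in LTHSC-like and from 43.3 to 84.0 (median 62.2) in CMP-like cells, so these overlapped. LMPP-like (36.0 ± 6.77), MEP-like (35.1 ± 8.52), MPP-like (27.96 ± 7.24), GMP-like (27.9 ± 6.42) and monocyte-like cells (27.6 ± 5.83) had lower means, and their pools overlapped with each other and with those of LTHSC-like cells. Hist1h1c made up 54.6% ± 9.18 of linker UMIs in LTHSC-like cells, 50.3% ± 4.99 in CMP-like and 43.8% ± 10.1 in MPP-like cells, but 11.4% ± 1.4 in MEP-like and 15.1% ± 3.28 in monocyte-like cells. Hist1h1b gave 8.18% ± 10.6 in LTHSC-like and 50.4% ± 1.63 in MEP-like cells. In LTHSC-like cells its share ran from 0.0% to 27.0% between pools, where the linker genes other than Hist1h1c gave only 8 to 40 UMIs per pool. These shares compare cell classes and not the linker genes with each other. Depth differed alongside, with a median of 5215 UMIs per LTHSC-like and 13239 per MEP-like cell, and its part in the shares was not tested.

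**Figure D3:**
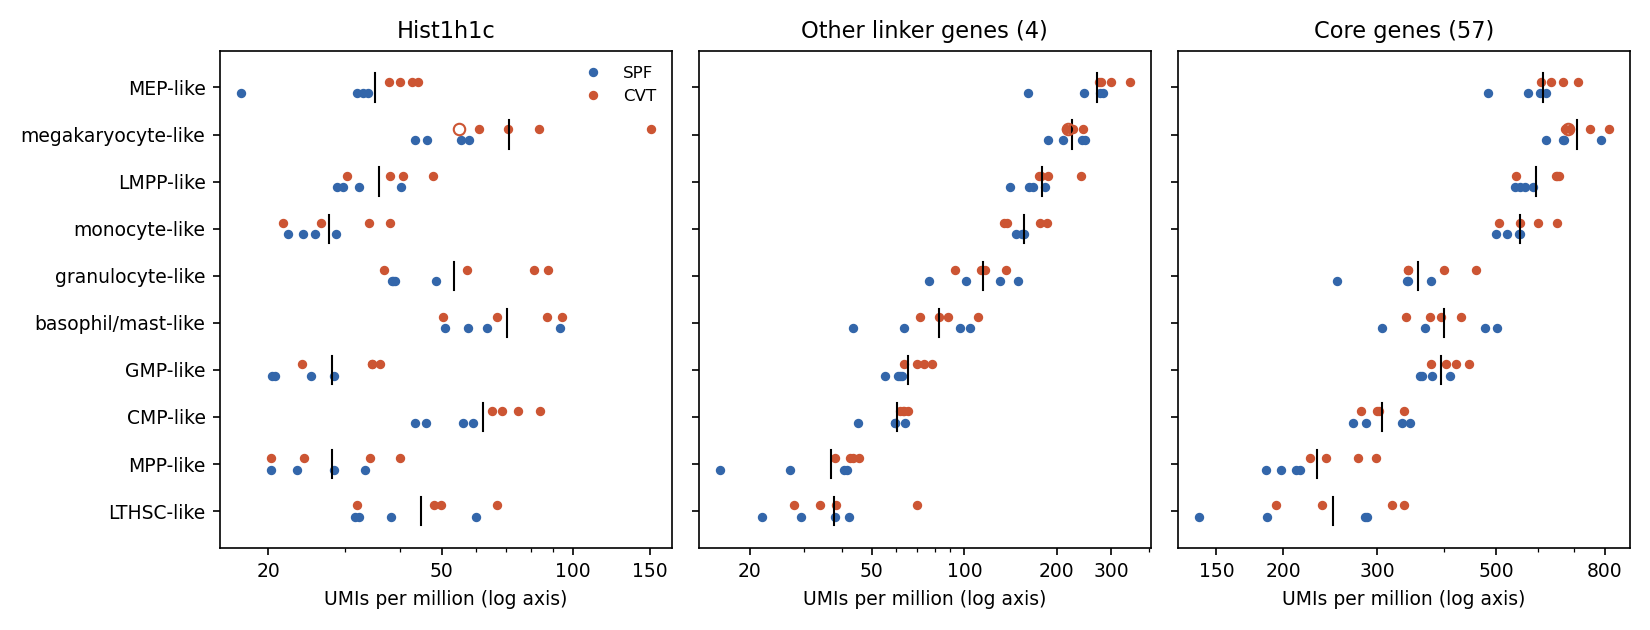
CPM (log axis) of Hist1h1c, the 4 other linker genes and the 57 core genes in each pool of the classes with 8 pools, with SPF in blue, CVT in orange and a black tick at the mean of the 8 pools. The open ring is CVT pool 6 without 1 cell. The other linker genes climb from 37.7 in LTHSC-like to 270.8 in MEP-like cells, and Hist1h1c goes from 44.8 to 35.1.

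The housing groups were compared first over all KL cells, the question the study was set up for. Hist1h1c was 36.6, 32.8, 30.9 and 31.6 CPM in SPF pools 1, 2, 7 and 8 and 45.1, 46.7, 41.5 and 40.7 in CVT pools 3, 4, 5 and 6. Every CVT pool lay above every SPF pool, but pool 6 fell to 34.4 without its 1 extreme cell and then overlapped with SPF pool 1. The means were 32.98 ± 2.52 (SD, n = 4) and 43.5 ± 2.85, a log2 difference of 0.45 (SE 0.0721). It did not pass the test over all 13092 genes, with an adjusted p of 0.507 (edgeR, unadjusted p = 9.795e-05). Without that cell the difference was 0.40 (SE 0.0986, adjusted p = 0.653).

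No histone gene was called between the housing groups, where 0.0% of all genes tested were. Of the 61 members tested, 58 had a higher value in CVT mice, where 46.5% of all genes tested did. The members' median log2 difference was 0.33, against −0.01 over all genes. At an unadjusted p under 0.05, 22 members were higher and 0 lower, where 2.99% of all genes were higher and 4.04% lower. The members share cells and cycle stages and are not independent of each other.

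**Figure D4:**
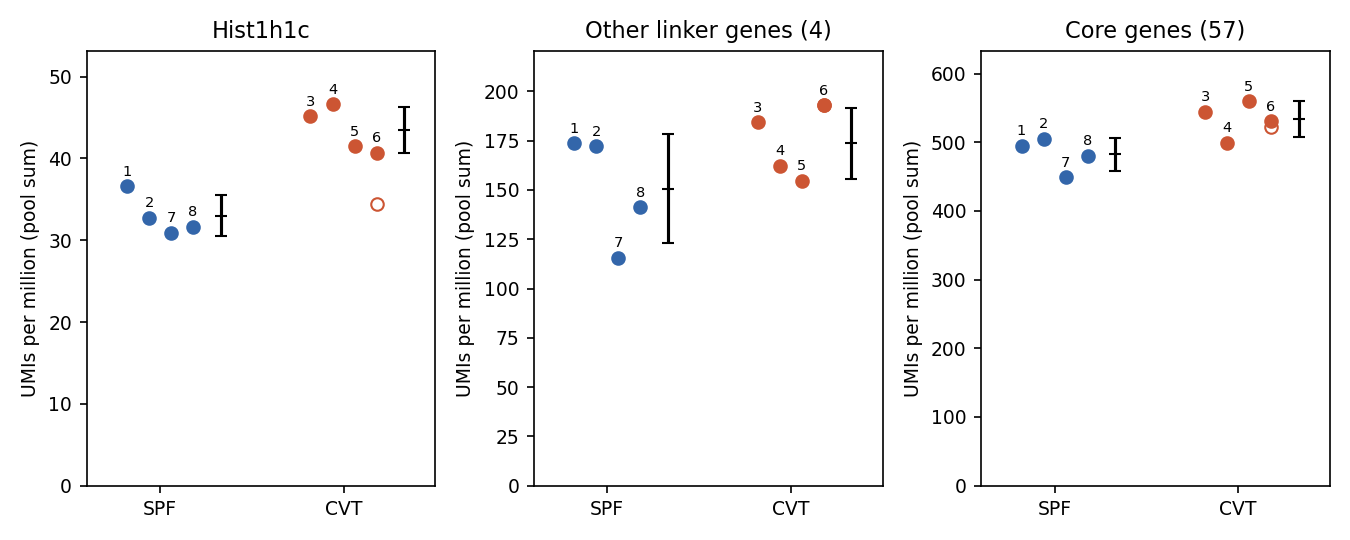
CPM of Hist1h1c, of the 4 other linker genes and of the 57 core genes in the 8 pools, with pool numbers beside the points, bars for mean and SD of the 4 pools of a group, and an open ring for CVT pool 6 without 1 cell. Hist1h1c lies between 30.9 and 36.6 in SPF and between 40.7 and 46.7 in CVT pools, and the other linker and core genes overlap between groups.

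The other 4 linker genes summed to 173.6, 172.1, 115.7 and 141.2 CPM in the SPF pools and 184.5, 162.4, 154.7 and 192.9 in the CVT pools, which overlap. Their log2 differences were 0.50 for Hist1h1a (SE 0.145), 0.35 for Hist1h1d (SE 0.129), 0.30 for Hist1h1b (SE 0.123) and 0.11 for Hist1h1e (SE 0.134), with adjusted p-values from 0.6601 to 0.8797 (edgeR). The 57 core genes summed to 494.8, 505.1, 449.1 and 480.6 in the SPF pools and 544.7, 499.6, 559.9 and 531.1 in the CVT pools, and overlapped too, CVT pool 4 lying below SPF pool 2.

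Every CVT pool was above every SPF pool for 8 members (0.901% of all genes), and the opposite held for 0 members (5.26% of all genes). The 8 were Hist1h1c, Hist1h2bc, Hist1h4i, Hist1h2bp, Hist2h2bb.1, Hist1h3b, Hist1h3g and Hist1h4n. Without the extreme cell Hist1h1c and Hist1h2bc dropped out and Hist1h2bj came in, which left 7 members (0.894% of all genes). Hist1h4i, an H4 gene, was 50.3, 50.5, 44.5 and 52.2 CPM in SPF and 57.6, 62.2, 59.9 and 63.2 in CVT pools. The lowest CVT pool stayed above the highest SPF pool with or without the cell, and the log2 difference was 0.35 (SE 0.0605, adjusted p = 0.507, edgeR). Hist1h2bp, an H2B gene picked for its value, had the widest difference at 0.66 (SE 0.122, adjusted p = 0.517), from 1.40 to 1.51 in SPF and 2.15 to 2.41 in CVT pools. The 3 members with a lower value in CVT mice were Hist3h2ba (−0.26), Hist1h2ae (−0.07) and Hist1h4d (−0.02). The remaining core genes named by rule were Hist1h3a at 0.44, Hist1h2bj at 0.32, Hist1h2bc at 0.21 (0.18 without the extreme cell), Hist1h2ap at 0.20 and Hist1h3e at 0.19, none of them called.

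**Figure D5:**
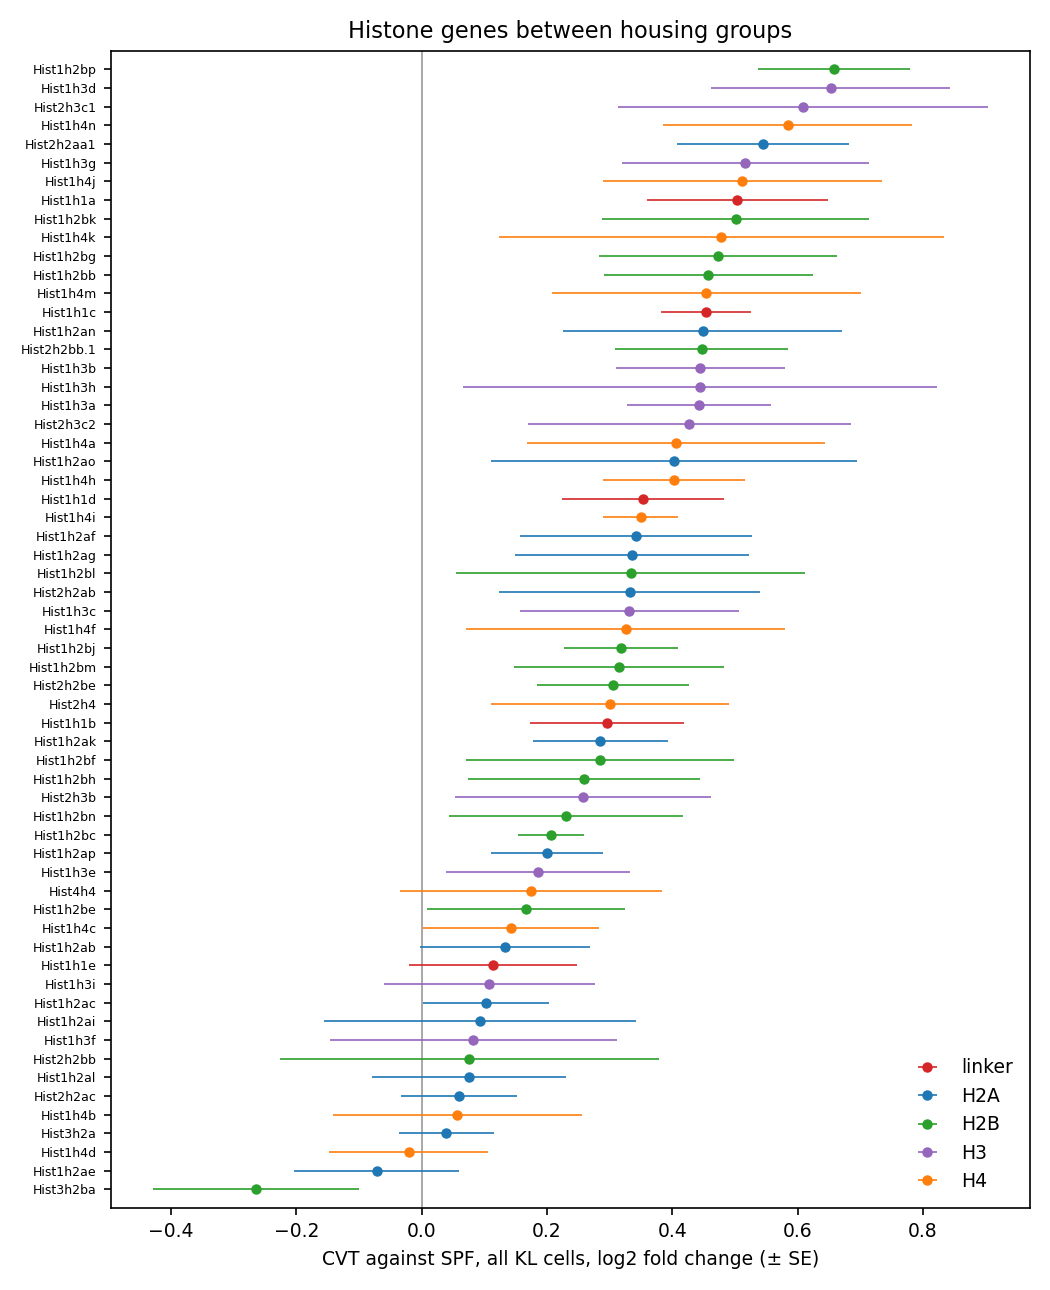
Log2 fold change between CVT and SPF mice over all KL cells for the 61 tested histone genes, with bars of 1 SE and colours for the histone family. Of these, 58 lie above 0 (46.5% of all genes tested do), with Hist1h2bp at 0.66, and none passed the test across all genes.

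By the sample titles, pools 1 to 4 held mice 1 to 10 and pools 5 to 8 mice 11 to 20, a division that the labels do not call a batch. Hist1h1c differed alike in both sets, with a log2 ratio of the means of 0.404 in pools 1 to 4 and 0.394 in pools 5 to 8 (0.278 without the extreme cell). The other linker genes differed by 0.005 and 0.436 and the core genes by 0.0627 and 0.231, so most of their difference lay in pools 5 to 8. With the set as a block in the fit, Hist1h1c was the only member called, at 0.45 (adjusted p = 0.02597, edgeR, 0.0306% of all genes called), and without the extreme cell it was not called, at 0.395 (adjusted p = 0.1016).

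Other measurements moved with the groups. The 9 granulocyte markers summed to 9366 to 44880 CPM in SPF and 5653 to 27030 in CVT pools, and the 8 GMP markers to 4440 to 5519 and 5097 to 7489, both overlapping. Of the 14 marker lists, 2 separated the groups without overlap, both higher in SPF pools. These were the 6 CMP markers, at 1069 to 1218 in SPF and 829.6 to 1031 in CVT pools, and the 10 LTHSC markers, at 114.7 to 129.2 and 69.3 to 112.4. Each of these markers was present in every pool. Without the granulocyte-like cells Hist1h1c differed by 0.46 (SE 0.0768, adjusted p = 0.3846), and its pools did not overlap. Without the extreme cell as well, pool 6 was at 34.2, the pools overlapped, and the difference was 0.40 (SE 0.101, adjusted p = 0.4649). The mitosis list summed to 1315 ± 145 (SD, n = 4) in SPF and 1445 ± 131 in CVT pools, and all 23 of its genes had a positive value (median 0.204), none of them called. The median of the 20 replication genes was 0.091, that of 6 stress genes 0.269 and that of the 5 tested sort genes −0.470, with 0 genes of these lists called. The part of these shifts in the histone values was not tested over all cells, and values within classes and ranges follow. Fewer cells of a type and less RNA per cell cannot be told apart in these sums alone. Counted as cells of the named clusters, 2 of the paper's classes separated the groups narrowly. LTHSC-like cells made up at least 2.91% of each SPF pool and at most 2.79% of each CVT pool. GMP-like cells made up at most 12.02% of each SPF pool and at least 12.39% of each CVT pool. The CMP-like fractions overlapped. The part of these fractions in the histone values was not tested.

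Within the 6 classes the study names, 0 members were called (0.0% of all genes in LTHSC-like, MPP-like, LMPP-like, MEP-like and GMP-like cells and 0.0111% in CMP-like cells). The number that could be tested ran from 4 of 62 in LTHSC-like to 53 in MEP-like cells. In CMP-like cells Hist1h1c was 56.0, 43.3, 45.9 and 59.0 CPM in SPF and 68.6, 84.0, 65.3 and 74.7 in CVT pools, without overlap. Its log2 difference was 0.58 (SE 0.118, unadjusted p = 4.894e-05, adjusted p = 0.1466, edgeR), and with the set of pools as a block it was called (adjusted p = 0.01433), where 0.089% of all genes were called higher. In MEP-like cells the SPF pools were 33.8, 31.9, 17.3 and 32.9 and the CVT pools 42.8, 44.2, 37.8 and 40.1, again without overlap, with a difference of 0.49 (SE 0.136, adjusted p = 0.7954). In GMP-like cells the pools overlapped (20.4 to 28.3 in SPF, 23.8 to 36.1 in CVT), and the difference was 0.51 (SE 0.132, adjusted p = 0.7468). It was 0.37 in LTHSC-like, 0.26 in MPP-like and 0.34 in LMPP-like cells, none of them called. At an unadjusted p under 0.05, 15 of 37 tested members were higher in CVT mice in LMPP-like cells (3.12% of all genes), 13 of 53 in MEP-like (2.39%), 10 of 39 in GMP-like (3.42%), 2 of 24 in CMP-like (2.92%), 1 of 7 in MPP-like (3.06%) and 0 of 4 in LTHSC-like cells (3.47%). Lower were 1 member in MEP-like cells (3.56% of all genes) and 0 in LMPP-like (2.35%), GMP-like (2.93%), CMP-like (2.08%), MPP-like (2.87%) and LTHSC-like cells (2.14%).

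In the ranges of cycle genes 0 members were called either. In replication-high cells the members' median was 0.66 over 47 tested, and 25 were higher at an unadjusted p under 0.05, where 4.15% of all genes were, and 0 were lower (4.1% of all genes). SPF pool 7 stood low in this range, with Hist1h1e at 10.2 CPM against 30.7 to 40.8 in the other SPF pools and Hist1h2ap at 27.5 against 72.3 to 101.8. Without pool 7 the members' median was 0.52 over 50 tested, 23 were higher at an unadjusted p under 0.05 (3.1% of all genes), and Hist1h1e differed by 0.61 in place of 0.86. Hist1h1c there was 17.5 ± 2.82 (SD, n = 4) in SPF and 29.6 ± 4.16 in CVT pools without overlap, a log2 difference of 0.80 (SE 0.127, adjusted p = 0.2182, edgeR). With the set of pools as a block it was called (adjusted p = 0.01153), the only gene of all higher in CVT mice in that fit (0.00906% of all genes). DESeq2 called it with Hist2h2aa1 and Hist1h4i, where 0.0362% of all genes were called higher. The core genes also did not overlap, at 309.0 ± 80.8 and 468.7 ± 44.7. The mitosis list in these cells moved alongside, at 735.8 in SPF and 973.5 in CVT pools, and its part was not tested. In mitosis-high cells the members' median was 0.21 and Hist1h1c 0.39 (adjusted p = 0.9998), and in low cells 0.25 and 0.97 (adjusted p = 0.9999). Without the extreme cell, Hist1h1c in low cells differed by 0.67 (SE 0.144, adjusted p = 0.9417), with 33.67 ± 7.53 CPM in SPF and 53.2 ± 7.46 in CVT pools (SD, n = 4), which did not overlap. The cycle lists were not level between the groups in low cells. All 20 replication genes (median 0.438) and all 14 tested mitosis genes (median 0.679) had a positive value, none of them called. In mitosis-high cells these medians were −0.105 and 0.125. The part of the lists in the histone values was not tested. At an unadjusted p under 0.05, 15 of 55 members were higher in mitosis-high (1.94% of all genes) and 6 of 27 in low cells (2.74%), with 0 lower in either (1.66% and 1.98%). No member was called for a change of the range differences with housing (0 members, 0.0% of all genes, edgeR interaction test, Benjamini-Hochberg). At an unadjusted p under 0.05 the interaction was positive for 6 members (3.64% of all genes) and negative for 0 (3.97%) in replication-high cells, and positive for 4 (2.54%) and negative for 5 (4.0%) in mitosis-high cells.

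Genes that work with these histones were also called between the ranges. In that fit, 36.4% of all genes were higher and 41.9% lower in replication-high cells, and 36.4% and 42.9% in mitosis-high cells. Of the 11 genes of replacement histones, which are also made outside S phase and mostly end in a poly(A) tail, 7 were higher and 3 lower in replication-high and 8 higher and 1 lower in mitosis-high cells. H2afz, which encodes the H2A variant at promoters, was 1.44 and 1.77 higher, H3f3b −0.29 and 0.16, and H3f3a 0.04 (adjusted p = 0.2026) and 0.09. The replacement linker histone H1f0, picked after its value was seen, was −1.73 and −0.58. Of the 14 tested genes of histone message processing and chaperones, 13 were higher and 1 lower in both ranges. Slbp, the hairpin binding protein, was 1.71 and 1.44 higher, the H1 and H3 chaperone Nasp 2.52 and 2.10, and Ssrp1, a subunit of the FACT chaperone, 1.055 and 1.004. Between the housing groups, medians were 0.022 over the 11 replacement genes and 0.034 over the 15 processing genes, and 0 of either were called.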

How the data were processed

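Single-cell libraries (10x 3′, Cell Ranger, build mm9 per the submitters' processing notes) came from 8 pools of sorted KL cells. The authors deposited raw UMI counts per gene and cell, with a number from 1 to 8 at the end of each cell name. That number was matched to the sample descriptions, which carry the same numbers, and every housing value rests on this match, which was inferred from the names. Cell Ranger counts reads that map to 1 gene, so near-identical histone copies can lose reads. All columns belonged to a pool of the series. No doublet caller was run.

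Counts were summed per pool and cell set and tested across all genes with edgeR 4.0.16 (quasi-likelihood test, TMM, filterByExpr, Benjamini-Hochberg, threshold 0.05) in R 4.3.3, with DESeq2 1.42.0 as an alternative. Levels are CPM, UMIs per 1000000 of the pool's UMIs in that cell set, and intervals and SDs cover the pools only. Cells were clustered without the histone genes (1000 variable genes, 30 components, 30 neighbours, resolution 2), which gave 32 clusters, 3 of them unnamed, and sums under 20 cells were left out. On simulated counts for the KL comparison (13129 genes), 199 of 200 genes changed 2-fold were recovered, with 4 false calls among 203. The simulation used a fixed spread between pools, and the changed genes all stood above a count limit. The members' differences between housing groups over all KL cells reached 0.66 on the log2 scale, less than 2-fold. Recovery of differences of that size was not tested. The members, lists and tests were chosen with earlier results of these data known. Named genes were every linker gene, the 2 members with the most UMIs of each core family, members called between housing groups in any fit, the members next to the 50-UMI limit and the 3 most abundant genes of the replacement and processing lists. Sequences came from GENCODE M21 and RefSeq on GRCm38, matched by symbol, and no coordinates were converted. Alternatives were DESeq2, other size factors, no filter, a cell filter, each pool left out, a block for the sets of pools, thinned cells, wider high ranges with a narrower low range, resolution 1 and clustering with the histone genes. Chosen after seeing the data were the fits without 1 cell, without granulocyte-like cells, without both, and with the block but without that cell.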

Additional observations from a re-analysis of the deposited data

Results flagged for a closer look

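In 4 groups of 4 pools, of 90 looked at, 1 pool lay far from the other 3 by Dixon's ratio (gap over range, critical value 0.829), and chance gives about 1 in 20 such groups. Hist1h2bc over all KL cells was highest in CVT pool 5, at 103.7 CPM (ratio 0.934). That ratio counts the extreme cell of CVT pool 6, and the ratio without it is not given. The mean of CVT pools 5 and 6 was 99.4 CPM with that cell and 96.3 without it. The core genes in LMPP-like cells of CVT mice had a lowest pool at 545.1 CPM (ratio 0.927). Hist1h1c in MEP-like cells of SPF mice was lowest in pool 7, at 17.27 CPM (ratio 0.886). Hist1h1c in GMP-like cells of CVT mice was lowest in pool 6, at 23.84 CPM (ratio 0.873).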

How the results depend on the processing

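Of the counts of called histone genes under alternatives, 199 stayed within 1.5 times the reported count and 14 moved. The pool set block called 1 member over all KL cells, 1 in CMP-like and 1 in replication-high cells, Hist1h1c each time. With no filter on low counts, 1 member was called in MPP-like (Hist1h2bc), 1 in LMPP-like (Hist1h1a), 1 in CMP-like and 1 in GMP-like cells (Hist1h1c), 2 in replication-high cells (Hist2h2aa1, Hist1h1c) and 2 in each interaction with housing. DESeq2 called 3 in replication-high cells, and over all KL cells it gave no adjusted p for any of the 61 members. Clustering with the histone genes kept called 1 in CMP-like cells, and leaving out single pools there gave 0 to 1, the call (Hist1h1c) coming without CVT pool 5. Wider high ranges together with a narrower low range called 27 members in place of 43 in replication-high cells, and turned Hist1h1e to −0.51 and Hist1h1d to −0.41. Among these alternatives, shares of all genes called are given above only for the block and for DESeq2 in replication-high cells. The other counts, those with no filter among them, therefore have no background beside them. Hist1h1c in mitosis-high cells was 0.002 without 1 cell and ran from −0.213 to 0.07 with single pools left out, and was positive without CVT pool 6. With single pools left out, the housing difference ran from −0.137 to 0.046 for Hist1h2ae and from −0.106 to 0.074 for Hist1h4d. The cause of these changes was not tested. No paired analysis was possible because the pools of the 2 groups share no replicate number. The fewest members, 4, passed the filter in LTHSC-like cells, and depth, cell number and histone level were not compared as limits.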
